A study of Homo sapiens and Mus musculus with 24 samples.

Results

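Enzalutamide, an antagonist of the androgen receptor, was given to LNCaP cells beside a fibroblast population called CRPCCAFs and to LNCaP cells grown alone, and the question here is which genes responded differently in the 2 settings. For each gene the difference of the 2 drug effects, D, was taken as the enzalutamide effect (enzalutamide minus DMSO) beside CRPCCAFs minus the enzalutamide effect in cells alone, on log2(RPKM + 1). A positive D means that the drug effect was more positive beside the fibroblasts, which covers a larger rise, a smaller fall or a turn from fall to rise. 8 of the 24 libraries of the series enter D, 2 for each of 4 groups, and every gene at 1 RPKM or more in at least 2 of the 12 LNCaP libraries was tested, which gave 16042 genes of 44564 names. RPKM, the deposited unit, is a read count scaled to gene length and library size.

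The series holds 12 libraries of LNCaP, an epithelial line from a human prostate cancer that responds to androgen, and 12 of cancer-associated fibroblasts isolated from mice, which are not analysed here. All 8 libraries used for D were labelled WT for genotype and were collected at day 7. The groups were LNCaP cocultured with CRPCCAFs under 1 µM enzalutamide, LNCaP cocultured with CRPCCAFs under DMSO, LNCaP grown without fibroblasts under 1 µM enzalutamide, and LNCaP grown without fibroblasts under DMSO. A further 4 libraries, 2 with enzalutamide and 2 with DMSO, hold LNCaP cocultured with CCAFs. The labels of the coculture libraries spell out neither fibroblast name and do not say whether the cells touched. Their titles carry the tag p53_ca for CRPCCAFs and p53 for CCAFs, whose meaning is not spelled out, and no separate field gives the fibroblasts' species or genotype. The labels call the 2 libraries of a group biological replicates and do not say what separated them, so p-values measure the spread between these libraries. The libraries held 17850431 to 22187880 reads, recovered from the steps of the RPKM values. Replicates correlated at 0.9905 to 0.9922 over all genes tested.

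The androgen receptor is a nuclear receptor that binds DNA when androgen is present and switches on genes of secretion, lipid synthesis and growth in luminal prostate cells, and holds others down. Enzalutamide blocks that step, so androgen-activated genes fall and androgen-repressed genes rise. Fibroblasts of the tumour stroma secrete matrix, growth factors and cytokines that act on receptors of the neighbouring cancer cells. NF-kB is a family of transcription factors that cytokines release from their inhibitors, and its targets include chemokines and its own inhibitors.

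Fibroblast RNA in the coculture libraries would be read as a change of the cancer cells, and the labels and headers do not state how reads of the LNCaP cells were kept apart from those of fibroblasts. The luminal epithelial list (17 genes) summed to 2347 and 2367 RPKM under enzalutamide and 1845 and 1906 RPKM under DMSO beside CRPCCAFs, against 2060 and 2102 RPKM under enzalutamide and 1609 and 1571 RPKM under DMSO in cells alone. The fibroblast list (25 genes) summed to 290 and 281 RPKM under enzalutamide and 204 and 193 RPKM under DMSO beside CRPCCAFs, against 149 and 151 RPKM under enzalutamide and 89.7 and 87.8 RPKM under DMSO in cells alone. Those sums came mostly from FN1 and COL6A1, which LNCaP alone also expressed. Of the 25 genes 15 did not meet the expression minimum. The highest value of any of these in the 12 libraries was 0.665 RPKM (LUM, in a DMSO library of cells alone). The same library held the highest COL1A2 (0.29 RPKM), and an enzalutamide library of cells alone the highest DCN (0.0961 RPKM). PDGFRA (0.0767 RPKM), FAP (0.0398 RPKM) and MMP3 (0.235 RPKM) were highest beside CRPCCAFs with enzalutamide. In the 2 libraries of that group LUM had 0.0793 and 0.0241 RPKM, DCN 0.0119 and 0 RPKM, and COL1A2 was at 0 in both. The other 10 genes of the fibroblast list were tested. Of these, 5 were higher and 1 was lower beside CRPCCAFs than in cells alone under enzalutamide (median difference 0.46), and 5 were higher and none lower under DMSO (median 0.27). Over all genes tested 16.5% were higher and 19.6% lower under enzalutamide, and 14.3% were higher and 16.3% lower under DMSO. COL1A1, a fibrillar collagen, had 12.2 and 12.6 RPKM under enzalutamide and 7.22 and 8.25 RPKM under DMSO beside CRPCCAFs, against 7.47 and 8.14 RPKM under enzalutamide and 4.49 and 4.75 RPKM under DMSO in cells alone, and its D did not pass (-0.03). D passed for COL5A1, another fibrillar collagen (D 0.84, adjusted p = 0.017), and COL6A1 (D -0.37, adjusted p = 0.0015). COL5A1 met the expression minimum only through the CRPCCAF libraries, and it missed the threshold when any of 5 libraries was left out (adjusted p of at most 0.071). The leukocyte and endothelial list (12 genes) summed to 24.4 and 23.5 RPKM under enzalutamide and 10.3 and 11.9 RPKM under DMSO beside CRPCCAFs, against 5.93 and 6.71 RPKM under enzalutamide and 6.85 and 5.51 RPKM under DMSO in cells alone. CD68, a lysosomal membrane protein of macrophages and other cells, made up most of that sum (D 1.04, adjusted p = 0.00099). CSF1R, the macrophage growth factor receptor, was under the expression minimum but stood at 0.424 and 0.498 RPKM beside CRPCCAFs with enzalutamide, against at most 0.0899 RPKM in every other library, and KDR, an endothelial receptor, at 0.0831 and 0.109 RPKM, against at most 0.0182 RPKM. The pan-leukocyte antigen PTPRC was listed at 0 in both CRPCCAF enzalutamide libraries and reached at most 0.0182 RPKM elsewhere. Other members under the minimum did not share the pattern of CSF1R and KDR. EMCN had 0.0554 and 0.0504 RPKM beside CRPCCAFs with enzalutamide, against 0.222 and 0.267 RPKM in cells alone with the drug. LYZ had 0.258 and 0.134 RPKM beside CRPCCAFs with enzalutamide and was highest in a DMSO library of cells alone (0.857 RPKM). CDH5 was at 0 and 0.0614 RPKM beside CRPCCAFs with enzalutamide. The part of either list in the results that follow was not tested. In bulk RNA a change in the number of cells of a kind and a change in RNA per cell cannot be told apart.

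D passed the test, an adjusted p under 0.05 in limma, for 1125 genes, 7.01% of those tested. It was above 0 for 590 (3.68%) and below 0 for 535 (3.33%). The median D over all genes was -0.0044. Most passing differences were small: the median size was 0.468 on the log2 scale and 132 genes (91 above 0, 41 below 0) reached 1 or more. Leaving out either enzalutamide library beside CRPCCAFs, either enzalutamide library of cells alone or either DMSO library of cells alone left 580 to 673 passing genes, while leaving out 1 DMSO library beside CRPCCAFs left 1121 or 859.

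The drug effect itself passed for 55.2% of genes beside CRPCCAFs (30.5% higher and 24.7% lower with the drug) and for 55.4% in cells alone (30.1% higher and 25.3% lower). The genes whose D passed took every form that a difference of drug effects can take. Rises under enzalutamide were larger beside CRPCCAFs than alone for 138 genes, passed beside CRPCCAFs and not alone for 156, and were smaller for 169. A rise passed alone and not beside CRPCCAFs for 118 genes. Falls were larger beside CRPCCAFs for 121 genes and smaller for 140, passed beside CRPCCAFs and not alone for 75, and passed alone and not beside CRPCCAFs for 89. The remaining 119 moved in opposite directions, with both effects past the threshold.

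**Figure D1:**
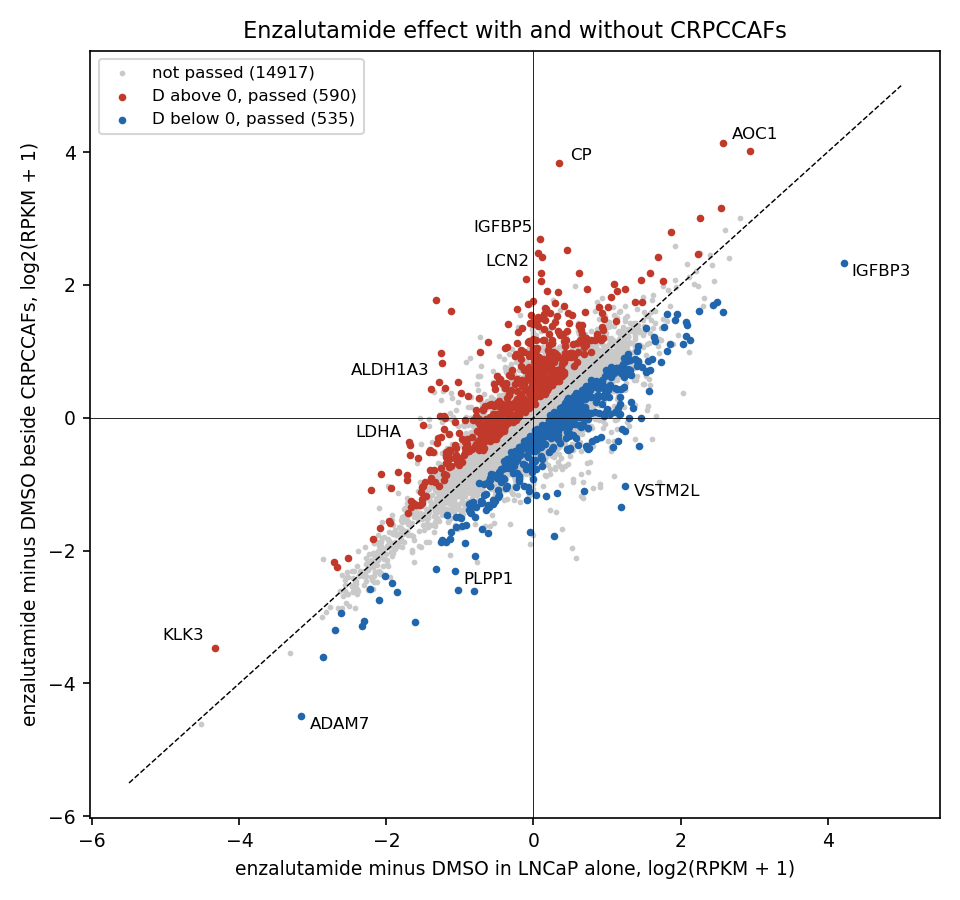
Enzalutamide effect beside CRPCCAFs (vertical) against the effect in LNCaP alone (horizontal) for 16042 genes, both enzalutamide minus DMSO on log2(RPKM + 1), with the dashed line where both are equal. The 590 red genes lie above the line and the 535 blue genes below it, and CP (D 3.48) and VSTM2L (D -2.27) are among those farthest from it.

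The promoters below show where NF-kB and hypoxia motifs lie in 4 genes whose D passed, taken from RefSeq on GRCh38.p14 and running from 250 bases before to 50 bases after the annotated start. Capitals mark the NF-kB motif in NFKBIZ, LCN2 and BIRC3 and the letters ACGTG, the core of the hypoxia response element, on either strand in LDHA.
NFKBIZ, chr3:101827740-101828039, plus strand: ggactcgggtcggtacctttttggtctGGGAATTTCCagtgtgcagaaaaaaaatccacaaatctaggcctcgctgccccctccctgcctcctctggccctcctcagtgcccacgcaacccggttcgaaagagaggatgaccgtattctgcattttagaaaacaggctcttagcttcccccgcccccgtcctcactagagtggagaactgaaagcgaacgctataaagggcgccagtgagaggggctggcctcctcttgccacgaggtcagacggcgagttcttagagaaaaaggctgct
LCN2, chr9:128149203-128149502, plus strand: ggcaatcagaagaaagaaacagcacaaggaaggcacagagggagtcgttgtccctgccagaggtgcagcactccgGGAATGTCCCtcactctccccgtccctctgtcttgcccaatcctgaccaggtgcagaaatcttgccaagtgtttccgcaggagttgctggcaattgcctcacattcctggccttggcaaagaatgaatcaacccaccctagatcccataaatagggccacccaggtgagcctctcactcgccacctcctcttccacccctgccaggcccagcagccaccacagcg
BIRC3, chr11:102317234-102317533, plus strand: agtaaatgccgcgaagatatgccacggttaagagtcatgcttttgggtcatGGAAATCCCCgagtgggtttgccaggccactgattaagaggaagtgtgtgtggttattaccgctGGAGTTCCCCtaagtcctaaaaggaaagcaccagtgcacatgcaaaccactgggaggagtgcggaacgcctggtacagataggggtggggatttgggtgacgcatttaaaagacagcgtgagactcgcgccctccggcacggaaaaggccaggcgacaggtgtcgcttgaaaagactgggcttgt
LDHA, chr11:18394313-18394612, plus strand: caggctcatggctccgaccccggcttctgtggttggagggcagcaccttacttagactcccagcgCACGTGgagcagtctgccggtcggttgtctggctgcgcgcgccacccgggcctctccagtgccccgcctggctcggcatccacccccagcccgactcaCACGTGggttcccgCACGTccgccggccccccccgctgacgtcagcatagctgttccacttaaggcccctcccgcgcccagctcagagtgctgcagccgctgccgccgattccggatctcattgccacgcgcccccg
The NF-kB match of NFKBIZ starts at base -223 from the annotated start, that of LCN2 at -175 on the opposite strand, and those of BIRC3 at -199 and -135, also on the opposite strand. LDHA has 5 ACGTG matches, of which 4 form overlapping pairs in the palindrome CACGTG. Of 27305 RefSeq promoters of this length, 5.72% hold the NF-kB motif and 21.6% hold ACGTG on either strand. Among the tested members of the NF-kB and chemokine list 10 of 12 had a promoter in the table, and 5 of those 10 held the motif (BIRC3, CCL20, LCN2, NFKBIA and TNFAIP3). Among the hypoxia and glycolysis genes, 16 of the 33 with a promoter held ACGTG. The letters AGAACA, part of the androgen response element, were in 4 of the 26 androgen-activated genes with a promoter (15.4%), against 14.9% of all promoters. A match describes these letters and says nothing of binding.

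Several genes of secreted proteins and of the NF-kB pathway were among the named genes with the most positive D. CP encodes ceruloplasmin, a copper-carrying ferroxidase of plasma. It had 71.5 and 71.5 RPKM under enzalutamide and 3.83 and 4.38 RPKM under DMSO beside CRPCCAFs, against 0.902 and 1.08 RPKM under enzalutamide and 0.568 and 0.554 RPKM under DMSO in cells alone. No library of one group overlapped those of another, and the drug went with a 17.4-fold higher mean beside CRPCCAFs against a 1.77-fold higher mean in cells alone (D 3.48, SE 0.10, adjusted p = 6e-07).

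LCN2 encodes lipocalin 2, which binds bacterial iron carriers. Its level was 23.8 and 23.2 RPKM under enzalutamide and 3.92 and 4.91 RPKM under DMSO beside CRPCCAFs, against 0.765 and 0.319 RPKM under enzalutamide and 0.32 and 0.536 RPKM under DMSO in cells alone. The 2 groups of cells alone overlapped, and the 2 coculture groups did not (D 2.08, SE 0.21, adjusted p = 0.00052). NFKBIZ, a nuclear inhibitor-like cofactor of NF-kB, had 27.6 and 26.7 RPKM under enzalutamide and 5.45 and 6.05 RPKM under DMSO beside CRPCCAFs, against 0.628 and 0.932 RPKM under enzalutamide and 0.735 and 0.572 RPKM under DMSO in cells alone. Here too the drug groups overlapped in cells alone and were apart beside the fibroblasts (D 1.96, SE 0.14, adjusted p = 6.1e-05).

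Across the NF-kB and chemokine list 12 of 20 genes were tested, and D passed above 0 for 8 and below 0 for 0, with a median D of 0.79 against -0.0044 over all genes. The expression minimum favours such a count: 6 of the 12 met it only through the CRPCCAF libraries where they are high (CCL20, CXCL8, IL1B, LCN2, TNF and TNFAIP3), and 5 of these passed above 0. Of the 6 that met it without those libraries, D passed above 0 for 3 (BIRC3, NFKBIA and SOD2), with a median of 0.45. 7 of those 8 rose under enzalutamide beside CRPCCAFs with no passing rise in cells alone or a fall there, and IL1B rose in both. IL1B, an inflammatory cytokine, had 4.85 and 4.69 RPKM under enzalutamide and 0.295 and 0.252 RPKM under DMSO beside CRPCCAFs, against 0.731 and 0.571 RPKM under enzalutamide and 0.0361 and 0.121 RPKM under DMSO in cells alone. Its D was 1.57 (adjusted p = 0.00083), but as a ratio of means the drug effect was 17.4-fold against 8.28-fold, and with weights from the recovered reads D did not pass (adjusted p = 0.40). CXCL8, a chemokine that draws neutrophils, had 5.12 and 4.81 RPKM under enzalutamide and 1.81 and 1.61 RPKM under DMSO beside CRPCCAFs, and at most 0.127 RPKM in any library of cells alone (D 1.22, adjusted p = 0.0034; 0.13 with a pseudocount of 0.1).

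BIRC3, an inhibitor of apoptosis that ubiquitinates NF-kB pathway kinases, turned its direction. It had 9.16 and 8.78 RPKM under enzalutamide and 4.48 and 3.83 RPKM under DMSO beside CRPCCAFs, against 1.43 and 1.46 RPKM under enzalutamide and 2 and 1.76 RPKM under DMSO in cells alone (D 1.19, SE 0.13, adjusted p = 0.0006). The feedback inhibitors NFKBIA (D 0.36, adjusted p = 0.041) and TNFAIP3 (D 0.84, adjusted p = 0.028), the chemokine CCL20 (D 1.77, adjusted p = 0.01) and the mitochondrial superoxide dismutase SOD2 (D 0.53, adjusted p = 0.0068) also passed. They were named after their values were seen. CXCL16, NFKB2, RELB and TNF did not pass. TNF, an inflammatory cytokine, had 2.04 and 1.94 RPKM beside CRPCCAFs with the drug, whereas the chemokine CCL2, at 1.87 and 0.883 RPKM in the same libraries, fell short of the expression minimum and was not tested. IL6 was at most at 0.0451 RPKM.

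Other secreted and surface proteins followed. KITLG, the ligand of the KIT receptor, had 12 and 12.5 RPKM under enzalutamide and 3.42 and 3.15 RPKM under DMSO beside CRPCCAFs, against 0.402 and 0.603 RPKM under enzalutamide and 0.716 and 0.791 RPKM under DMSO in cells alone (D 1.85, SE 0.14, adjusted p = 8.5e-05). All 4 groups of KITLG were apart. IGFBP5, which binds insulin-like growth factors, had 22.9 and 21.5 RPKM under enzalutamide and 2.84 and 2.38 RPKM under DMSO beside CRPCCAFs, and at most 0.215 RPKM in cells alone (D 2.60, adjusted p = 2.9e-05; 0.055 with weights from recovered reads). NMB, the peptide neuromedin B, had 79.1 and 85.6 RPKM under enzalutamide and 19.1 and 23.7 RPKM under DMSO beside CRPCCAFs, against 2.42 and 3.32 RPKM under enzalutamide and 2.52 and 2.24 RPKM under DMSO in cells alone (D 1.72, adjusted p = 0.0015). The drug groups of NMB overlapped only in cells alone.

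**Figure D2:**
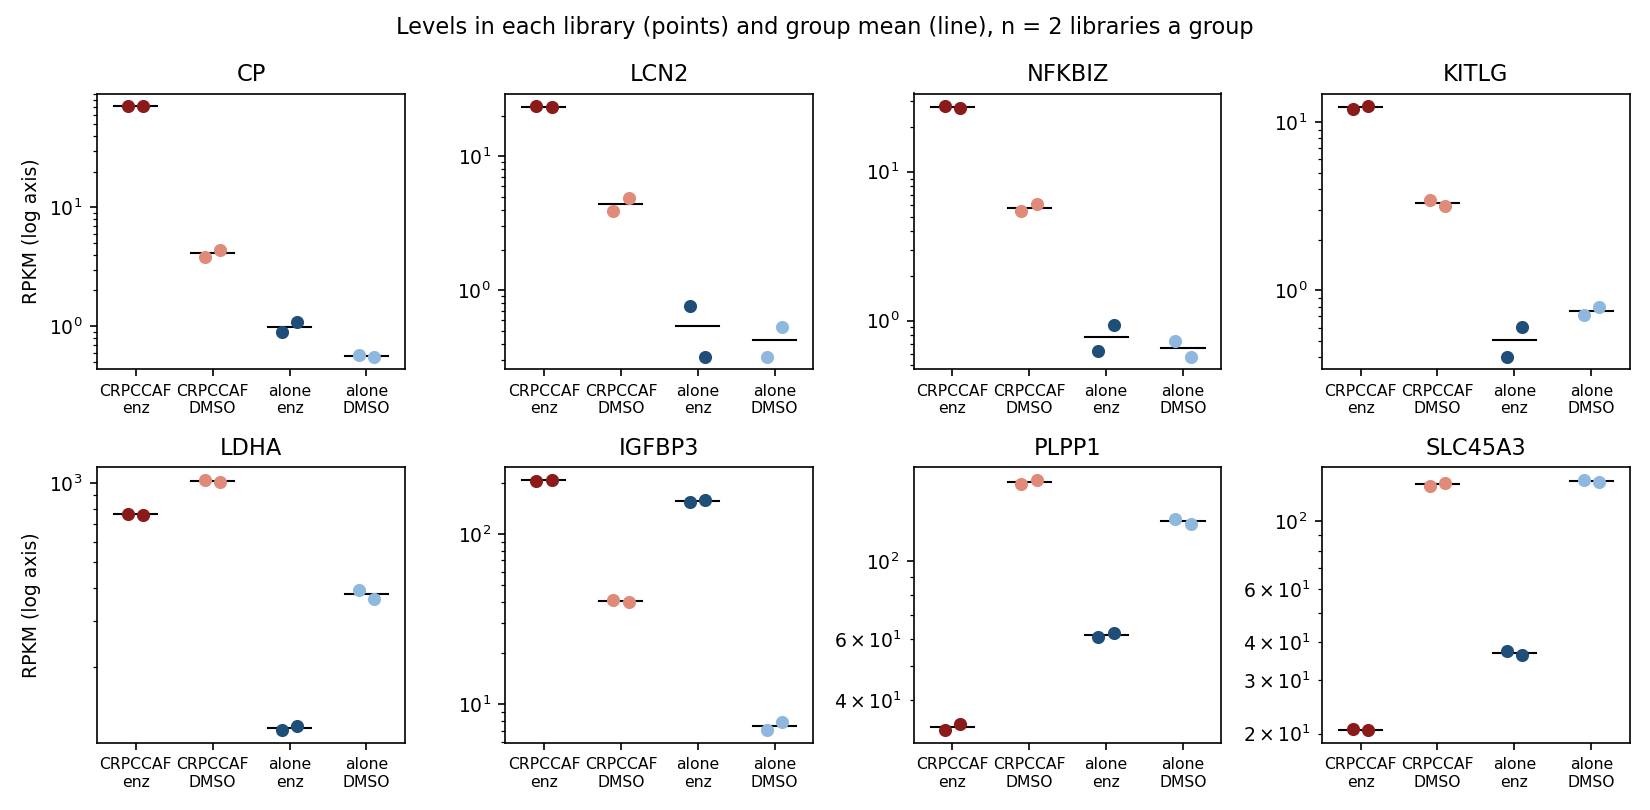
RPKM on a log axis in each library (points) of the 4 groups, with the group mean as a line (n = 2 libraries a group). CP, LCN2, NFKBIZ and KITLG stand highest beside CRPCCAFs with enzalutamide, LDHA is lowest in cells alone with enzalutamide, IGFBP3 is lowest in cells alone with DMSO, and PLPP1 and SLC45A3 are lowest beside CRPCCAFs with enzalutamide.

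Other named genes with a strongly positive D were SDCBP2 (D 2.40), an adaptor with PDZ domains, MAN1A1 (D 2.06), a mannosidase that trims glycans, ALDH1A3 (D 1.83) and CRYAB (D 1.76), a small heat shock protein. FKBP1A-SDCBP2 (D 2.30) is a read-through transcript that shares exons with SDCBP2, so how its reads were divided between both names is uncertain.

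Receptors and the output of their kinases were read from 3 lists. Of the 9 integrin genes tested, D passed above 0 for ITGAV (D 0.65), ITGA2 (D 0.76) and ITGB6 (D 0.98) and below 0 for none. Over all genes the shares were 3.68% above 0 and 3.33% below 0. ITGB6 met the expression minimum only through the CRPCCAF libraries, and D passed above 0 for 2 of the other 8. ITGAV, the alpha chain of vitronectin and osteopontin receptors, had 41.4 and 42.3 RPKM under enzalutamide and 28.1 and 25.3 RPKM under DMSO beside CRPCCAFs, against 20.5 and 20.2 RPKM under enzalutamide and 19.9 and 21.4 RPKM under DMSO in cells alone (adjusted p = 0.0009). ITGB6 was at most at 0.0773 RPKM in cells alone, its call was lost with a pseudocount of 0.1 (adjusted p = 0.19) and without CRPCCAF enzalutamide replicate 1 (adjusted p = 0.06), and CD44 and SPP1 were under the expression minimum. Of 14 receptor tyrosine kinases and ligands, FGFR1, a fibroblast growth factor receptor (D 1.01, adjusted p = 0.00092), and VEGFA, an angiogenic factor (D 0.66, adjusted p = 0.004), passed above 0, and the insulin-like growth factor receptor IGF1R passed below 0 (D -0.49, adjusted p = 0.041). VEGFA rose with the drug beside CRPCCAFs and fell with it in cells alone. IGF1R missed the threshold when any of 7 libraries was left out (adjusted p of at most 0.13).

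Within ERK output, 14 genes were tested, and D passed above 0 for 5 and below 0 for 2, with a median of 0.29. Over all genes it passed above 0 for 3.68% and below 0 for 3.33%. DUSP5, EGR1 and ETV4 met the expression minimum only through the CRPCCAF libraries, and 2 of these 3 passed above 0. Of the other 11, D passed above 0 for 3 and below 0 for 2, with a median of 0.19. EGR1, an immediate early transcription factor, had 22.1 and 22.1 RPKM under enzalutamide and 10.5 and 10.8 RPKM under DMSO beside CRPCCAFs, against 0.349 and 0.545 RPKM under enzalutamide and 0.638 and 0.534 RPKM under DMSO in cells alone (D 1.13, adjusted p = 0.0015). IER3, an early response gene, also had a positive D (1.06, adjusted p = 0.0042), and DUSP4, ETV4 and SPRED1, named after their values were seen, were the other 3. SPRY4, a feedback inhibitor of receptor kinases, went the other way: it rose 7.34-fold beside CRPCCAFs and 25.4-fold in cells alone (D -0.99, SE 0.16, adjusted p = 0.0052). MYC, a growth-promoting transcription factor, fell 9.11-fold beside CRPCCAFs and 5.20-fold in cells alone (D -0.74, SE 0.06, adjusted p = 0.0001).

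Several glycolytic enzymes fell less under enzalutamide beside CRPCCAFs than alone. LDHA, the lactate dehydrogenase of glycolytic cells, had 767 and 760 RPKM under enzalutamide and 1033 and 1007 RPKM under DMSO beside CRPCCAFs, against 115 and 119 RPKM under enzalutamide and 391 and 364 RPKM under DMSO in cells alone. It fell 1.34-fold beside the fibroblasts and 3.23-fold alone, with all groups apart (D 1.26, SE 0.06, adjusted p = 5.7e-06). PFKP, a phosphofructokinase, fell 1.31-fold and 2.59-fold (D 0.93, adjusted p = 0.00011), HK2, a hexokinase, also fell less (D 0.77, adjusted p = 0.00036), and GPI, the glucose phosphate isomerase, fell in cells alone and did not pass beside CRPCCAFs (D 0.54, adjusted p = 0.00052).

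Over the hypoxia and glycolysis list, 36 genes were tested. D passed above 0 for 16 and below 0 for 3, with a median of 0.24. The 3 below 0 were EGLN3 (D -0.59) and P4HA1 (D -0.47), named after their values were seen, and ENO2 (D -0.40), an oxygen sensor, a collagen hydroxylase and an enolase, and ENO2 missed the threshold when any of 6 libraries was left out (adjusted p of at most 0.099). Of other hypoxia-induced genes the glucose carrier SLC2A1 (D -0.05, adjusted p = 0.79) and the carbonic anhydrase CA9 (D 0.50, adjusted p = 0.21) did not pass. Levels of the list were higher beside CRPCCAFs than alone under both agents, with a median difference of 1.49 under enzalutamide and 1.32 under DMSO. GDF15, a stress-induced cytokine on the p53 list, had a like pattern, at 812 and 807 RPKM under enzalutamide and 978 and 1121 RPKM under DMSO beside CRPCCAFs, against 80.5 and 85.8 RPKM under enzalutamide and 287 and 254 RPKM under DMSO in cells alone (D 1.32, SE 0.10, adjusted p = 9e-05). Of 21 p53 targets D passed above 0 for 4 and below 0 for 1.

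**Figure D3:**
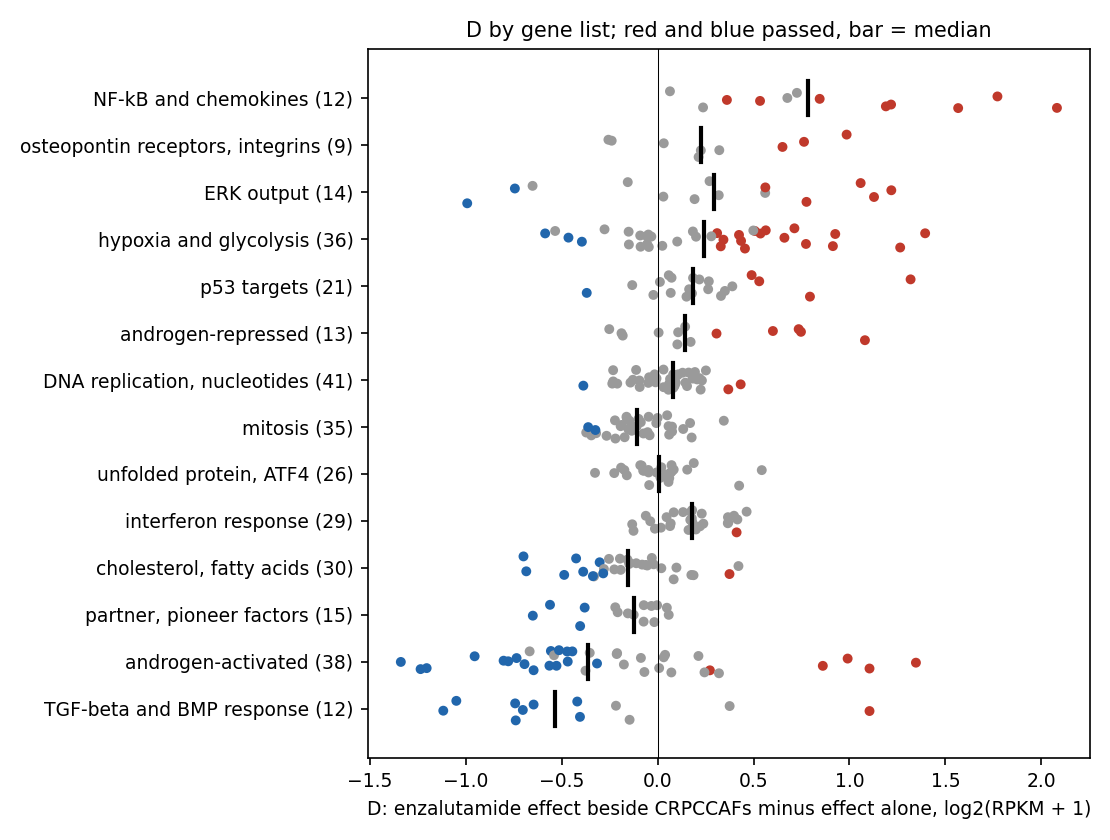
D of each tested member (points) of 14 gene lists on log2(RPKM + 1), red where it passed above 0, blue where it passed below 0 and grey where it did not pass, with the median as a bar and the number tested in brackets. The NF-kB list has the highest median (0.79) and the TGF-beta and BMP list the lowest (-0.53) of these 14.

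Androgen-activated genes as a group fell further under enzalutamide beside CRPCCAFs. Of 38 tested, D passed below 0 for 17 and above 0 for 5, with a median of -0.36, and the median enzalutamide effect was -1.30 beside CRPCCAFs and -0.98 in cells alone. PLPP1, a lipid phosphate phosphatase, had 32.8 and 34.2 RPKM under enzalutamide and 167 and 172 RPKM under DMSO beside CRPCCAFs, against 60.8 and 62.5 RPKM under enzalutamide and 132 and 128 RPKM under DMSO in cells alone. It fell 5.05-fold beside CRPCCAFs and 2.12-fold alone, with all groups apart (D -1.24, SE 0.05, adjusted p = 3.4e-06). SLC45A3, the luminal transporter also called prostein, had 20.7 and 20.5 RPKM under enzalutamide and 131 and 134 RPKM under DMSO beside CRPCCAFs, against 37.4 and 36.5 RPKM under enzalutamide and 137 and 135 RPKM under DMSO in cells alone. The 4 DMSO libraries lay between 131 and 137 RPKM, while the enzalutamide libraries of the 2 settings were apart (D -0.78, SE 0.04, adjusted p = 2.3e-05).

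FKBP5, a co-chaperone of steroid receptors, fell 8.95-fold and 5.48-fold (D -0.65, adjusted p = 0.0011), and MAF, a leucine zipper transcription factor, fell beside CRPCCAFs and did not pass alone (D -1.20, adjusted p = 0.00019). ADAM7, a surface protein of the metalloprotease family, fell 66.0-fold beside CRPCCAFs and 29.2-fold in cells alone (D -1.34, adjusted p = 0.00011), with at most 0.527 RPKM in any of those 4 enzalutamide libraries. The 5 genes with a positive D were KLK3, KLK4, ABCC4, PMEPA1 and SPOCK1, of which KLK4, ABCC4 and SPOCK1 were named after their values were seen. SPOCK1 met the expression minimum only through the CRPCCAF libraries. KLK3, the gene of prostate-specific antigen, had 178 and 180 RPKM under enzalutamide and 1945 and 2031 RPKM under DMSO beside CRPCCAFs, against 55.6 and 61.5 RPKM under enzalutamide and 1243 and 1145 RPKM under DMSO in cells alone. It fell in both settings, 11.1-fold and 20.4-fold (D 0.86, SE 0.08, adjusted p = 0.0002). PMEPA1, a transmembrane inhibitor of SMAD signalling that androgen also induces, fell 1.50-fold and 3.42-fold (D 1.10, adjusted p = 3e-05).

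Some familiar targets had a D that did not pass. KLK2, a kallikrein protease, had D -0.09 (SE 0.10, adjusted p = 0.68), and TMPRSS2, a surface protease, had D 0.04 (SE 0.06, adjusted p = 0.77). D of KLK2 turned positive with a pseudocount of 0.1 (0.36, adjusted p = 0.097) and with weights from recovered reads (0.43, adjusted p = 0.16). Both stood higher beside CRPCCAFs under either agent. TMPRSS2 had 73.1 and 74 RPKM under enzalutamide and 282 and 283 RPKM under DMSO beside CRPCCAFs, against 24.4 and 26.2 RPKM under enzalutamide and 105 and 98.2 RPKM under DMSO in cells alone. As a list, the androgen-activated genes had a median difference between CRPCCAF coculture and cells alone of -0.14 under enzalutamide and 0.38 under DMSO: 12 were higher and 16 lower beside CRPCCAFs under enzalutamide, and 22 were higher and 5 lower under DMSO. Over all genes 36.1% passed under enzalutamide (16.5% higher and 19.6% lower) and 30.6% under DMSO (14.3% higher and 16.3% lower).

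**Figure D4:**
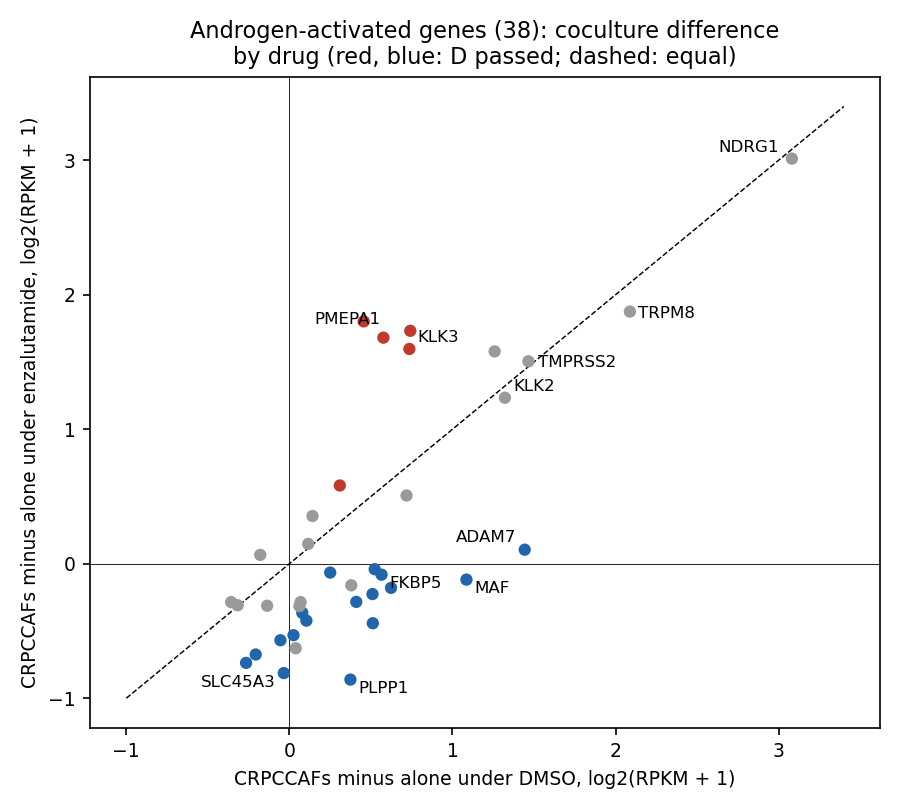
CRPCCAF coculture minus cells alone under enzalutamide (vertical) and under DMSO (horizontal) for the 38 androgen-activated genes tested, on log2(RPKM + 1), with a dashed line where both are equal. The 17 blue genes lie below the line, with PLPP1 and SLC45A3 among them, the 5 red genes above it, and KLK2 and TMPRSS2 near it.

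Among the 15 tested genes of the list of androgen receptor partner and pioneer factors, D passed below 0 for GATA2 (D -0.65), ETV1 (D -0.56), ZMIZ1 (D -0.40) and GRHL2 (D -0.38), and above 0 for none. GATA2, a pioneer factor of prostate enhancers, had 62.5 and 63.5 RPKM under enzalutamide and 58.5 and 64 RPKM under DMSO beside CRPCCAFs, where the drug groups overlapped, against 86.9 and 91.4 RPKM under enzalutamide and 56.2 and 53.4 RPKM under DMSO in cells alone (adjusted p = 0.00052). NR3C1, the glucocorticoid receptor gene, stayed at most at 0.105 RPKM.

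Some androgen-repressed genes rose further beside CRPCCAFs. Of 13 tested, D passed above 0 for 5 and below 0 for none, with a median of 0.14. UGT2B17, which inactivates androgens by glucuronidation, had 63.8 and 64 RPKM under enzalutamide and 2.82 and 3.19 RPKM under DMSO beside CRPCCAFs, against 84.8 and 89.5 RPKM under enzalutamide and 9.77 and 11.3 RPKM under DMSO in cells alone. Its level was lower beside CRPCCAFs under both agents, and its rise was 21.2-fold there and 8.28-fold alone (D 1.08, SE 0.10, adjusted p = 0.00025). UGT2B15 (D 0.75), a close paralog with which reads could be shared, the chemokine scavenger ACKR3 (D 0.73) and the decarboxylase DDC (D 0.60) also passed, and PIK3R3 was the other one. In steroid synthesis SRD5A3, a reductase of the steroid 5-alpha-reductase family, had 43.2 and 41.5 RPKM under enzalutamide and 18.5 and 18.5 RPKM under DMSO beside CRPCCAFs, against 12.9 and 13.3 RPKM under enzalutamide and 13.2 and 14.2 RPKM under DMSO in cells alone (D 1.22, SE 0.07, adjusted p = 2.3e-05).

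Most tested TGF-beta and BMP response genes had a negative D. Of 12 tested, D passed below 0 for 8 (66.7%) and above 0 for 1 (8.33%), which was PMEPA1, with a median of -0.53. The shares over all genes were 3.33% below 0 and 3.68% above 0. CTGF and LTBP1 met the expression minimum only through the CRPCCAF libraries. Of the other 10, D passed below 0 for 7 and above 0 for 1, also with a median of -0.53. SMAD9, a transducer of BMP signals, had 9.54 and 9.76 RPKM under enzalutamide and 9.73 and 8.88 RPKM under DMSO beside CRPCCAFs, against 24.1 and 24.3 RPKM under enzalutamide and 9.77 and 10.7 RPKM under DMSO in cells alone. The libraries of cells alone under enzalutamide stood above all the others, and the drug groups overlapped beside CRPCCAFs (D -1.12, SE 0.09, adjusted p = 0.00013). ID1, an inhibitor of helix-loop-helix factors and a BMP target, had 93.5 and 95.1 RPKM under enzalutamide and 26.6 and 30.3 RPKM under DMSO beside CRPCCAFs, against 175 and 184 RPKM under enzalutamide and 30.8 and 33.8 RPKM under DMSO in cells alone (D -0.74, adjusted p = 0.0017). Its relative ID2 had the same D (-0.74, adjusted p = 0.0015). CTGF, a matricellular protein, also passed (D -1.05, adjusted p = 0.0069), but it was at most at 0.0923 RPKM in cells alone, where the ratio of means was as large (3.24-fold lower, against 3.27-fold lower beside CRPCCAFs). The call of CTGF was lost with a pseudocount of 0.1 (adjusted p = 0.41) and with weights from recovered reads (adjusted p = 0.79).

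Binding proteins of insulin-like growth factors parted. IGFBP3 had 206 and 209 RPKM under enzalutamide and 40.9 and 40 RPKM under DMSO beside CRPCCAFs, against 155 and 159 RPKM under enzalutamide and 7.03 and 7.87 RPKM under DMSO in cells alone. The drug groups were apart in both settings, and the rise was 5.14-fold beside CRPCCAFs and 21.1-fold alone (D -1.89, SE 0.09, adjusted p = 5.9e-06), whereas D of IGFBP5 was 2.60. Of 5 genes tested in that family these were the ones that passed. IGFBP5 met the expression minimum only through the CRPCCAF libraries.

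The most negative D of the named genes was that of VSTM2L, a secreted protein with an immunoglobulin-like domain. VSTM2L had 4.44 and 5.38 RPKM under enzalutamide and 10.8 and 11.2 RPKM under DMSO beside CRPCCAFs, against 3.14 and 3.25 RPKM under enzalutamide and 0.66 and 0.876 RPKM under DMSO in cells alone (D -2.27, SE 0.14, adjusted p = 3e-05). Its 4 groups were apart and the drug effect turned from a rise alone to a fall beside the fibroblasts. EFNB2, a membrane ligand of Eph receptors, turned in the same way, with 4.74 and 4.66 RPKM under enzalutamide and 12.2 and 11 RPKM under DMSO beside CRPCCAFs, against 8.94 and 9.67 RPKM under enzalutamide and 7.14 and 7.39 RPKM under DMSO in cells alone (D -1.46, SE 0.09, adjusted p = 2.9e-05). HIST1H4H, a histone gene of a family with near-identical copies and thus uncertain (D -1.50), and EDN2, an endothelin (D -1.21), did so as well. ADRA2A, an adrenergic receptor (D -1.44), rose in cells alone by 1.24 on the log2 scale, while its drug effect beside CRPCCAFs was -0.20 and did not pass. PHGR1 (D -1.79) and PGC, the pepsinogen progastricsin (D -1.46), were at most at 0.817 RPKM under enzalutamide in both settings, with DMSO levels of 6.97 to 9.39 RPKM beside CRPCCAFs and 0.935 to 2.52 RPKM alone. Neither passed with weights from recovered reads (adjusted p = 0.13 for PHGR1 and 0.87 for PGC). MMP7, a matrix metalloprotease, was listed at 0 in both libraries of cells alone under enzalutamide, and its D was -1.57 with a pseudocount of 1 and 0.736 with a pseudocount of 0.1.

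Of 10 genes of retinoid metabolism D passed above 0 for 3 and below 0 for 1. Over all genes the shares were 3.68% above 0 and 3.33% below 0. CRABP2 and CYP26A1 met the expression minimum only through the CRPCCAF libraries, and 1 of them passed above 0. Of the other 8, D passed above 0 for 2 and below 0 for 1. ALDH1A3, which makes retinoic acid, had 75.8 and 78.8 RPKM under enzalutamide and 53.2 and 52.6 RPKM under DMSO beside CRPCCAFs, against 11.6 and 11.5 RPKM under enzalutamide and 29.4 and 29.9 RPKM under DMSO in cells alone (D 1.83, SE 0.06, adjusted p = 1.1e-06). It rose with the drug beside CRPCCAFs and fell in cells alone. CYP26A1, which degrades retinoic acid, had 32.3 and 31.7 RPKM under enzalutamide and 10.6 and 11.9 RPKM under DMSO beside CRPCCAFs, and at most 0.0655 RPKM in cells alone (D 1.47, adjusted p = 0.00017). DHRS3, which reduces retinal, passed above 0 (D 0.66, adjusted p = 0.01) and RDH11, a retinal reductase of prostate, below 0 (D -0.34, adjusted p = 0.0036). Among 19 NRF2 targets D passed above 0 for 6 and below 0 for 2, led by AKR1C1, a ketosteroid reductase (D 1.56, adjusted p = 0.00061; 0.072 with weights from recovered reads), whose paralogs can share its reads. AKR1C1 and AKR1C2 met the expression minimum only through the CRPCCAF libraries, and both passed above 0. Of the other 17, D passed above 0 for 4 and below 0 for 2, with a median of 0.05. HMOX1, heme oxygenase 1, had D 0.53 (adjusted p = 0.03), which missed the threshold when any of 7 of the 8 libraries was left out (adjusted p of at most 0.1).

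Some genes of lipid and polyamine synthesis fell further beside CRPCCAFs. FASN, the fatty acid synthase, had 88.7 and 84.8 RPKM under enzalutamide and 192 and 199 RPKM under DMSO beside CRPCCAFs, against 100 and 102 RPKM under enzalutamide and 140 and 139 RPKM under DMSO in cells alone (D -0.70, SE 0.05, adjusted p = 6.5e-05). Of 30 genes of cholesterol and fatty acid synthesis D passed below 0 for 8 and above 0 for 1, the desaturase SCD, with a median of -0.15. ODC1, the first enzyme of polyamine synthesis, fell 2.48-fold and 1.46-fold (D -0.76, adjusted p = 0.00025). AOC1, which degrades histamine and putrescine, had D 1.56 (adjusted p = 0.00011), with levels at most 0.26 RPKM under DMSO in cells alone and a call that was lost with weights from recovered reads (adjusted p = 0.60).

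Cell cycle genes fell under enzalutamide in both settings, and D passed for few of them. Of 41 genes of DNA replication and nucleotide synthesis D passed above 0 for 2 and below 0 for 1, with a median of 0.08, and the median enzalutamide effect was -1.70 beside CRPCCAFs and -1.88 in cells alone. Of 35 mitosis genes D passed below 0 for DLGAP5 (D -0.36) and MYBL2 (D -0.32) and above 0 for none, with medians of the enzalutamide effect of -2.31 and -2.21. These shares are near those over all genes. DLGAP5 missed the threshold when any of 4 libraries was left out (adjusted p of at most 0.065), and MYBL2 when any of 7 was (at most 0.13). MKI67, the proliferation marker Ki-67, had 1.34 and 1.41 RPKM under enzalutamide and 14.5 and 12.8 RPKM under DMSO beside CRPCCAFs, against 3.05 and 3.04 RPKM under enzalutamide and 19.8 and 22.5 RPKM under DMSO in cells alone (D -0.17, SE 0.10, adjusted p = 0.38). With weights from recovered reads D of MKI67 passed below 0 (adjusted p = 0.0039), as it did with a pseudocount of 0.1 (adjusted p = 0.045), and the median of the mitosis list was then -0.33. Unfolded protein and ATF4 genes passed for 0 of 26, 24 MYC and ribosome biogenesis genes passed for 0 above and 2 below, 77 ribosomal protein genes for 0 above and 1 below, and 29 interferon genes for 1 above and 0 below.

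The same difference was taken with CCAFs in place of CRPCCAFs. Both share the libraries of cells alone, so the 2 were not correlated, and the direct contrast between the fibroblast labels, which uses no library of cells alone, was tested instead. It passed for 1034 genes (6.45%), with the enzalutamide effect higher beside CRPCCAFs than beside CCAFs for 381 (2.38%) and lower for 653 (4.07%). The cell cycle gave the plainest difference. MKI67 had 1.34 and 1.41 RPKM under enzalutamide and 14.5 and 12.8 RPKM under DMSO beside CRPCCAFs, against 7.63 and 7.46 RPKM under enzalutamide and 20.7 and 19.7 RPKM under DMSO beside CCAFs (difference -1.31, adjusted p = 9.6e-05). The enzalutamide effect was lower beside CRPCCAFs for 35 of 35 mitosis genes and for 35 of 41 replication genes, and higher for none of either list. The median effect on mitosis genes was -2.31 beside CRPCCAFs and -1.12 beside CCAFs, and on replication genes it was -1.70 beside CRPCCAFs and -0.97 beside CCAFs. MYC (difference -1.41, adjusted p = 6.9e-06), 15 of 24 MYC and ribosome biogenesis genes and 41 of 77 ribosomal protein genes were also lower beside CRPCCAFs, and none of these was higher.

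**Figure D5:**
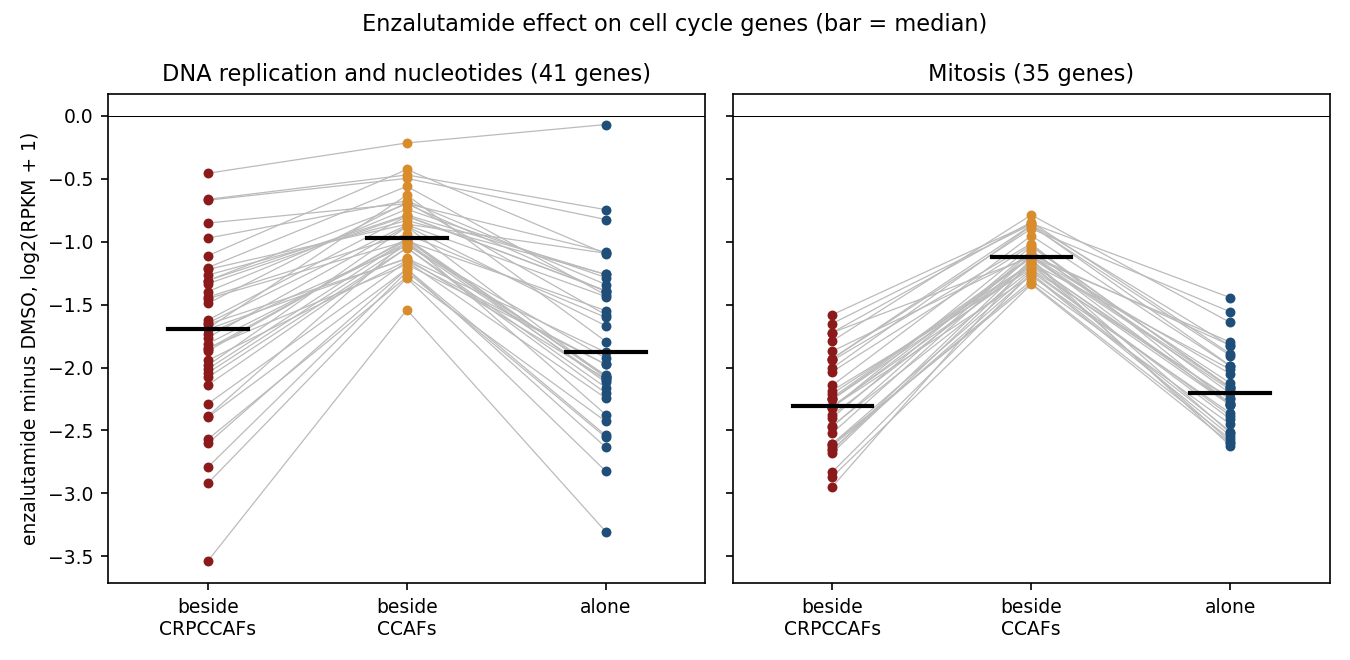
Enzalutamide effect (enzalutamide minus DMSO, log2(RPKM + 1)) on each gene of DNA replication and nucleotide synthesis (41 genes) and of mitosis (35 genes) beside CRPCCAFs, beside CCAFs and in cells alone, with lines joining a gene and bars for medians. The median falls are smallest beside CCAFs (-0.97 and -1.12) and lie near each other beside CRPCCAFs (-1.70 and -2.31) and alone (-1.88 and -2.21).

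For the NF-kB and chemokine genes the contrast went the other way, with 7 of 12 higher beside CRPCCAFs than beside CCAFs and none lower. Of the 7, 4 were among the 6 genes that met the expression minimum only through the CRPCCAF libraries, and 3 among the other 6. LCN2 had 0.351 and 0.507 RPKM under enzalutamide and 0.734 and 0.869 RPKM under DMSO beside CCAFs, below every CRPCCAF library (difference 2.52, adjusted p = 0.00014). Hypoxia and glycolysis genes were higher for 11 of 36 and lower for none. IGFBP5 (difference 2.82, adjusted p = 1.4e-05), NMB (difference 1.77, adjusted p = 0.0012) and HMOX1 (difference 2.31, adjusted p = 1e-05) were also higher beside CRPCCAFs. HMOX1 went the other way beside CCAFs, at 5.69 and 6.98 RPKM under enzalutamide and 23.7 and 21.3 RPKM under DMSO there, and at 124 and 126 RPKM under enzalutamide and 79.2 and 82.3 RPKM under DMSO beside CRPCCAFs.

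Kallikreins differed between the fibroblast labels as well. KLK3 had 178 and 180 RPKM under enzalutamide and 1945 and 2031 RPKM under DMSO beside CRPCCAFs, against 444 and 454 RPKM under enzalutamide and 1861 and 1849 RPKM under DMSO beside CCAFs (difference -1.42, adjusted p = 1e-05), and KLK2 had a difference of -1.32 (adjusted p = 7.2e-05). PMEPA1 was the reverse (difference 1.35, adjusted p = 1e-05). For several of the most negative genes the contrast did not pass, among them IGFBP3 (difference -0.24, adjusted p = 0.16), SMAD9 (0.13, adjusted p = 0.46) and MAF (0.01, adjusted p = 0.99). D with CCAFs was -1.66 for IGFBP3, -1.25 for SMAD9 and -1.21 for MAF. CP passed (difference 1.08, adjusted p = 0.00025), with 10.1 and 9.68 RPKM under enzalutamide and 0.612 and 0.631 RPKM under DMSO beside CCAFs.

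With 2 libraries a group, D rests on 6 residual degrees of freedom shared by all 6 LNCaP groups. The scale log2(RPKM + 1) also makes D depend on the level: a gene near 0 in cells alone can have a large D where its ratios are alike, as the values given for CTGF show. Over all genes, 548 met the expression minimum only through the CRPCCAF libraries, of which D passed above 0 for 44 and below 0 for 5.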

How the data were processed

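Of the 24 RNA-seq libraries of the series the 12 of LNCaP cells were fitted, 2 for each of 6 groups. The values are RPKM, as deposited by the authors in a table that names them so per the file headers. HISAT2, HTSeq, DESeq2, hg19 and mm10 appear in the submitters' processing notes, with neither role nor version. A step that separates human from fibroblast reads is not stated there. The table held 44591 names, of which 27 date-like ones (gene symbols altered by a spreadsheet) were removed.

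Genes at 1 RPKM or more in at least 2 of the 12 libraries (16042) were tested on log2(RPKM + 1) with limma 3.58.1 in R 4.3.3, with a mean-variance trend, 6 group means and 6 residual degrees of freedom, two-sided, and Benjamini-Hochberg adjustment over all tested genes at 0.05. A fold is a ratio of group means of RPKM. On this scale changes of low genes are understated. Whole reads could be recovered from the RPKM steps for 15941 of the tested genes (99.37%), where 100.0% of values came out whole within 0.05 reads, giving 17850431 to 22187880 reads a library. The fit was checked on simulated data.

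The genes named are the 12 largest rises and 12 largest falls of D with a mean of at least 1 RPKM in at least 2 of the 4 groups, the same sign with a pseudocount of 0.1 and an official symbol, in each list the passing members of smallest p, at most 4, and a fixed set of genes. The members and lists were chosen with earlier results of these data known. Libraries with the same replicate number did not deviate together (correlations of -0.0617 to 0.084 over pairs of groups), so the numbers were not taken as pairs. Alternatives were a pseudocount of 0.1, no filter, median-of-ratios scaling, a replicate block, a fit to the compared groups alone and leaving out each library, and, chosen after seeing the data, weights from the recovered reads. Promoters came from RefSeq on GRCh38.p14 and were matched by symbol. Genes on the Y chromosome were left out of the named genes, and some genes that meet the rule are not reported here.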

Additional observations from a re-analysis of the deposited data

Results flagged for a closer look

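Differences between the 2 settings in the drug effect are what D measures, and the test of the difference passed for 1125 genes between CRPCCAF coculture and cells alone and for 1034 genes between CRPCCAF and CCAF coculture. Of the named genes reported here, 10 had drug effects that passed in opposite directions in the 2 settings. The drug effect was a rise beside CRPCCAFs and a fall in cells alone for ALDH1A3 (D 1.83), BIRC3 (D 1.19), VEGFA (D 0.66), TXNRD1, a thioredoxin reductase (D 0.53), and CDKN1A, the cell cycle inhibitor p21 (D 0.49). It was a fall beside CRPCCAFs and a rise in cells alone for VSTM2L (D -2.27), HIST1H4H (D -1.50), EFNB2 (D -1.46), EDN2 (D -1.21) and DUSP1, a phosphatase of MAP kinases (D -0.66). Groups of 2 libraries are too small to look for a library far from the others of its group.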

How the results depend on the processing

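The count of genes whose D passed (1125) was 1025 with a pseudocount of 0.1, 929 with no filter, 1132 with median-of-ratios scaling, 623 when only the 8 compared libraries were fitted, 1723 with weights from recovered reads (996 shared) and 580 to 1121 with 1 library left out. The count between CRPCCAF and CCAF coculture (1034) was 986, 866, 1021, 780 and 1588 under the same alternatives (950 shared with weights) and 580 to 1367 with 1 library left out. With the replicate number as a block, the counts were 981 and 992, and 6 of the 103 named genes that passed lost their call. Of these 103, 82 kept their call with any 1 library left out and 21 lost it in at least 1 case. Over all the other alternatives 74 of the 103 stayed the same, while 28 lost their call in at least 1 of them and 4 changed sign. These tallies leave out genes named after their values were seen, unless a list also named them. D changed sign for CYP11A1 (0.002 with a pseudocount of 0.1 and 1.625 with weights), MMP7 (0.736 and 2.857), PGC (0.367 with weights) and SNAI2 (0.643 with weights), and for KLK2, which did not pass (0.36 and 0.428). The cause was not tested. Of 420 list medians under the alternatives, 410 moved by less than the median standard error of D among the genes of the list, and 10 moved by more. That error is one of single genes and not of a list median. With 2 libraries a group, small differences could be missed, although the smallest passing D was 0.184 in size. Values under 1 RPKM rest on few reads.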

Other observations

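Among genes of apoptosis, 15 were tested and D passed above 0 for 3 and below 0 for none, with a median of 0.10. They included the survival factor MCL1 (D 0.42) and the proapoptotic PMAIP1 (D 0.47). PMAIP1 missed the threshold when any of 7 libraries was left out. On the p53 list the proapoptotic BBC3 (D 0.79), the repair factor DDB2 (D 0.53) and CDKN1A (D 0.49) passed above 0 beside GDF15, and the stress sensor SESN1 passed below 0 (D -0.37). DDB2 missed the threshold when any of 6 libraries was left out.

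Other lists passed in both directions, against 3.68% above 0 and 3.33% below 0 over all genes. Of 12 Wnt and YAP targets D passed above 0 for 2 (16.7%) and below 0 for 4 (33.3%), but several of these calls depended on the processing. CTGF met the expression minimum only through the CRPCCAF libraries. With a pseudocount of 0.1 CTGF (adjusted p = 0.41) and C8orf4 (0.066) lost their calls, as they did with weights from recovered reads (0.79 and 0.35). D of MMP7 turned positive under both (0.736 and 2.857). Of 12 glucocorticoid-induced genes D passed above 0 for 2 and below 0 for 4. Luminal markers passed above 0 for 2 of 17 and below 0 for 1. CLDN4 (adjusted p = 0.065), EHF (0.061) and FOLH1 (0.054) missed the threshold when only the 8 compared libraries were fitted. Basal and mesenchymal markers passed above 0 for 2 of 8 and below 0 for 1. Of these 8, 4 met the expression minimum only through the CRPCCAF libraries, among them KRT15 (above 0) and SNAI2 (below 0). Of the other 4, D passed above 0 for 1 and below 0 for none. KRT15 and SNAI2 lost their calls with a pseudocount of 0.1 (adjusted p = 0.22 and 0.82) and with weights from recovered reads (0.084 and 0.67).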
